A study of Homo sapiens with 60 samples.

Results

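The 500 µg/mL dose of a dried ginger extract was compared with its 20 µg/mL dose in A549 cells, an established human lung carcinoma line of alveolar epithelial origin. The extract was made from Zingiberis Rhizoma with 70% ethanol. The comparison took 6 of the 60 RNA-seq libraries of the series by their treatment and dose labels, 3 at 500 µg/mL (the high dose) and 3 at 20 µg/mL (the low dose). All cells were sampled after 24 h. The series also holds dried ginger at 100 µg/mL (the medium dose), fresh ginger (Zingiberis Rhizoma Recens, extracted in the same solvent) at the same 3 doses, and DMSO vehicle, each with 3 libraries. These served for the dose course, for the comparison of dried with fresh ginger, and as a reference level. For the vehicle the DMSO concentration differs between sample labels and series text, but no vehicle level enters a test here. The comparison answers how the transcriptome of 1 cell line differed between the ends of the dose range of 1 extract.

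Ginger is the rhizome of Zingiber officinale. Its pungent phenols are gingerols, which lose water to form shogaols on drying. Shogaols carry an unsaturated ketone that reacts with thiols. The composition of the extract was not measured in these data. Several stress pathways are read out by well known target genes in cultured cells. ATF4, the transcription factor of the integrated stress response, induces genes of amino acid supply. NF-kB induces chemokines and its own inhibitors. HSF1 drives heat shock chaperones, SREBP factors drive sterol and fatty acid synthesis, and the aryl hydrocarbon receptor drives cytochrome P450 genes.

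The 6 libraries held 22.0 to 38.5 M (mega) counts, and 8.54 to 10.5% of these were from mitochondrially encoded genes. The third replicate of each dried ginger dose stood further from the other two than those did from each other (mean chi-square per gene 4.70 to 8.73 for pairs with replicate 3, and 1.94 to 2.92 for the other pairs). No pair of libraries was a duplicate. All 10 epithelial and A549 markers passed the filter on low counts, with KRT8 at 3068 ± 52.8 CPM (counts per 1000000 counts of the library, mean ± SD, n = 3) at the low dose. None of the 6 endothelial markers reached 1 CPM in any of the 6 libraries. Of 8 blood cell markers 6 were at or near 0, PTPRC, CD3E, MS4A1, LYZ and HBB among them, and 2 were tested: CD68, a lysosomal glycoprotein, rose by 1.21 ± 0.14 and CD14 changed by −1.05 ± 0.20. The blood markers summed to 16.8 to 18 CPM at the high and 8.73 to 9.35 CPM at the low dose. Of 7 fibroblast markers 4 passed the filter and 2 of them, COL1A1 and COL3A1, fell, with sums of 20.6 to 21.7 CPM at the high and 32.0 to 36.5 CPM at the low dose. COL1A2 was listed at 0 in all 6 libraries.

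At the high dose 2800 genes were higher and 2654 lower than at the low dose among 16628 genes tested, 16.8% and 16% of them and 32.8% together (edgeR's quasi-likelihood test, Benjamini-Hochberg adjusted p under 0.05). Most changes were small. The median size of a called change was 0.29 on the log2 scale. Changes of at least 2-fold were called for 194 higher genes (1.17%) and 130 lower genes (0.782%), together 1.95%. The median change of all genes tested was 0.00. The 3 high and 3 low libraries did not overlap for 23.6% of genes in the upward and 22.5% in the downward direction, together 46.2%. Nothing in the labels ties the replicates to separate cultures. The p-values therefore rest on a spread between libraries that can be partly technical.

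Among genes that averaged 5 CPM or more, the largest rise was that of NIBAN1 (ENSG00000135842, GRCh38 chr1:184790724-184974550), a stress-induced regulator of translation. Its 3 low dose libraries held 11.6, 9.02 and 11.6 CPM and its 3 high dose libraries 76.7, 81.6 and 81.2 CPM. The groups lay far apart, at 7.43-fold between their means, and the log2 change was 2.90 ± 0.075 (± SE, as for all log2 changes; adjusted p = 7.94e-22). The vehicle libraries held 10.7 ± 0.734 CPM, which is the level of the low dose. STC2, a secreted glycoprotein of calcium and phosphate balance, went from 26.8, 26.6 and 26.2 CPM to 124, 121 and 118 CPM. The high libraries of STC2 lay 4.56-fold above the low ones on average, a log2 change of 2.19 ± 0.061 (adjusted p = 2.72e-21). The peptide hormone gene ADM2 rose by 2.55 ± 0.16 from a low level, with 1.41, 1.54 and 1.68 CPM at the low and 9.05, 8.98 and 9.07 CPM at the high dose.

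CDCP1, a membrane glycoprotein phosphorylated by Src kinases, rose from 4.61, 4.31 and 4.44 CPM to 19, 18.8 and 18 CPM (2.06 ± 0.11). GREM1, a secreted antagonist of bone morphogenetic proteins, rose from 5.42, 6.51 and 6.24 CPM to 21.7, 21.8 and 20.8 CPM (1.81 ± 0.078). IRAK2, a kinase-like adaptor of interleukin 1 and Toll-like receptors, rose from 9.46, 9.32 and 9.87 CPM to 30.8, 30.3 and 30.5 CPM (1.68 ± 0.070). In each of these 3 genes the high dose libraries lay close together and far above the low dose libraries. The choice of the 10 largest rises required groups without overlap. The ligand of the NK cell receptor NKG2D encoded by ULBP1 rose by 1.59 ± 0.13. The remaining genes of the 10 largest rises were ALDH1L2, CHAC1 and TRIB3, which belong to the amino acid response described next.

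**Figure D1:**
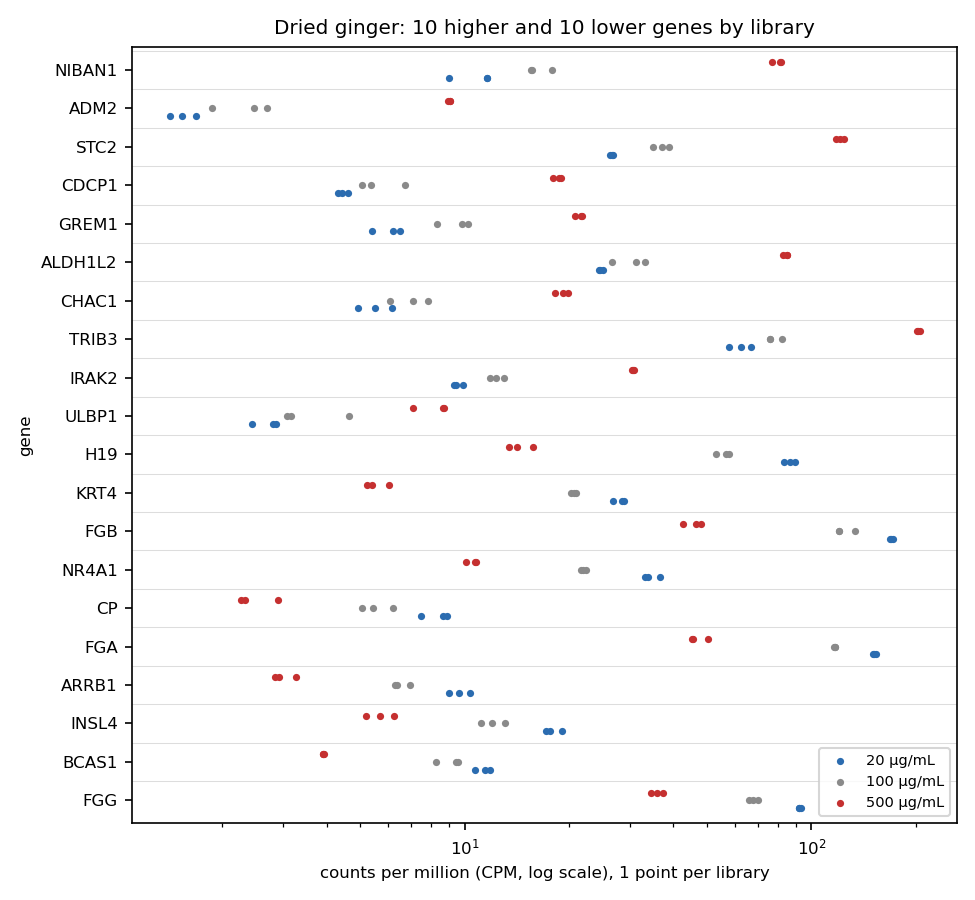
CPM on a log scale (x axis) of the 10 genes with the largest rise and the 10 with the largest fall, 1 point per library, at 20 µg/mL (blue), 100 µg/mL (grey) and 500 µg/mL (red) of dried ginger. The red and blue points do not overlap in any of the 20 genes, which the choice of these genes required, and most grey points lie between them (1 grey point of CHAC1 lies among the blue ones).

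Genes of the ATF4 branch rose together. Of 20 tested factors and feedback genes 17 were higher and 0 lower, with a median log2 change of 0.88. TRIB3, a pseudokinase that restrains ATF4, rose from 66.8, 58.0 and 62.8 CPM to 202, 202 and 205 CPM (1.70 ± 0.055, adjusted p = 2.48e-19). DDIT4, an inhibitor of mTORC1, rose from 176, 164 and 167 CPM to 353, 365 and 365 CPM (1.09 ± 0.042). The groups of both genes were separate, and the spread within each was small against the difference. DDIT3, which encodes the factor CHOP, rose by 1.21 ± 0.069, and CEBPG, a partner of ATF4 on DNA, by 0.73 ± 0.037. CHAC1, a glutathione-degrading enzyme, went from 5.54, 6.18 and 4.92 CPM to 19.2, 19.9 and 18.2 CPM (1.77 ± 0.10). The 3 members past no threshold were EIF2AK3 (0.12 ± 0.067) and EIF2AK4 (0.09 ± 0.049), kinases upstream of ATF4, and CEBPB (0.08 ± 0.16). They were picked out after their values were seen.

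Enzymes that make serine, asparagine and one-carbon units formed the second group. Of 16 tested, 12 were higher and 2 lower (median 0.70). Asparagine synthetase ASNS (ENSG00000070669, chr7:97852118-97872542) rose from 115, 113 and 118 CPM to 263, 258 and 276 CPM. That was a 2.30-fold difference with no overlap (1.21 ± 0.042, adjusted p = 5.32e-19). The mitochondrial folate enzyme ALDH1L2 rose from 25.1, 24.5 and 24.6 CPM to 83.0, 85.3 and 85.2 CPM (1.77 ± 0.069). Cystathionine beta-synthase CBS rose by 1.32 ± 0.053, the serine synthesis enzyme PSAT1 by 0.96 ± 0.037 and the mitochondrial folate enzyme MTHFD2 by 0.86 ± 0.036. The lower pair, named after their values were seen, were CTH (−0.36 ± 0.12), which splits cystathionine, and the cytosolic folate enzyme MTHFD1 (−0.16 ± 0.048). CBS and CTH, successive enzymes of transsulfuration, thus changed in opposite directions. The fall of that pair was less firm, since without replicate 1 of the high dose or replicate 3 of the low dose neither was called.

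Amino acid transporters were higher in 10 of 13 tested and lower in 0 (median 0.43). The glycine transporter SLC6A9 had 8.53, 8.32 and 8.96 CPM at the low and 23.8, 23.2 and 23.3 CPM at the high dose (1.45 ± 0.065). SLC1A4, a carrier of alanine and serine, had 36.1, 33.6 and 35.3 CPM and 72.0, 73.6 and 73.7 CPM (1.06 ± 0.043). In both genes the groups were widely separate. The glutamine carriers SLC38A1 (0.58 ± 0.054), SLC38A2 (0.43 ± 0.041) and SLC1A5 (0.45 ± 0.044) rose less. Cytosolic aminoacyl-tRNA synthetases, which charge tRNAs, were higher in 11 of 20 and lower in 2 (median 0.26). GARS1 rose most, from 226, 225 and 230.4 CPM to 381, 369 and 385 CPM (0.74 ± 0.035), and SARS1, CARS1, MARS1 and AARS1 rose by 0.57 to 0.63. KARS1 (−0.12 ± 0.036) and RARS1 (−0.21 ± 0.045), named after their values were seen, were the 2 lower synthetases, and 1 was lower without replicate 2 of the high dose or replicate 3 of the low dose.

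ATF4 binds a composite element with C/EBP factors, and promoters of the 4 amino acid lists were searched for it in RefSeq sequence (GRCh38.p14). The window ran from 250 bases before to 50 bases after each start, and TGATGNAA was searched on both strands. It was found in 3.62% of 35116 promoters. Among members with a promoter in the table it was found in 3 of 19 ATF4 branch genes, 3 of 11 enzymes, 3 of 11 transporters and 6 of 16 synthetases. In the ATF4 branch 2 of 15 higher and 0 of 3 uncalled genes held it, and the third match was FGF21, which was not tested. It lay in 3 of 7 higher, 0 of 2 lower and 0 of 2 uncalled enzymes, and in 3 of 9 higher and 0 of 2 uncalled transporters. Of the 9 higher synthetases with a promoter 5 held it (AARS1, CARS1, IARS1, MARS1 and NARS1). Neither of the 2 lower ones did, and of the 5 uncalled ones TARS1 did. A match describes letters in a window and shows no binding. The 250 bases before the start are shown for the 3 members with a match there and the lowest p, because they show how the element lies in genes that rose. Capitals mark the element, read on the minus strand where it appears as TTGCATCA. They come from chr7:97872409-97872658 (minus strand), chr15:40953221-40953470 (plus strand) and chr16:70289507-70289756 (minus strand), and each run ends at the base before the start.
ASNS: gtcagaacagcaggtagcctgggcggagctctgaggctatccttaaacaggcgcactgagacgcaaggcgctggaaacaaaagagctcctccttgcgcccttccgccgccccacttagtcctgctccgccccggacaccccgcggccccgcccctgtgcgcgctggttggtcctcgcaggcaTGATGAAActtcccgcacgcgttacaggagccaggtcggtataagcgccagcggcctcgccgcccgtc
CHAC1: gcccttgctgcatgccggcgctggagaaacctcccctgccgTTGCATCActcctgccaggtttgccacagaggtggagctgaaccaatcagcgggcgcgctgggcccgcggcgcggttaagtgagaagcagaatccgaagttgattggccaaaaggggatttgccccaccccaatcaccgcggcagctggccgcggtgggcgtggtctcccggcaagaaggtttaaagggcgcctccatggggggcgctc
AARS1: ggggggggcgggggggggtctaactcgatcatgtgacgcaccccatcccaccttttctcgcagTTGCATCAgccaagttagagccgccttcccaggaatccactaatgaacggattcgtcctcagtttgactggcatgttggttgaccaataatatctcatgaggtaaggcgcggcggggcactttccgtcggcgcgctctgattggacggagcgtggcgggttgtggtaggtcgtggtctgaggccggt
The element began 68 bases before the start in ASNS, 209 in CHAC1 and 187 in AARS1.

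The list of chaperones and degradation factors of the endoplasmic reticulum gave no common direction. Of its 21 tested members 8 were higher and 6 lower, with a median of 0.00. It does not separate the arms of the unfolded protein response. ERN1, the sensor IRE1, rose from 17.6, 16.6 and 17.2 CPM to 33.1, 36.0 and 33.4 CPM (1.00 ± 0.064), and its target factor XBP1 rose by 0.39 ± 0.055. The cochaperone DNAJB9 rose by 0.55 ± 0.071 and HYOU1 by 0.28 ± 0.035. Calreticulin CALR, a calcium-binding chaperone, went the other way, from 466, 478 and 484 CPM to 346, 335 and 345 CPM (−0.48 ± 0.034), with separate groups. The count of lower members fell to 3 without replicate 3 of the high dose.

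NF-kB genes and chemokines formed the list with the highest share of rises, 19 of 20 tested, with 1 lower and a median of 0.83. The neutrophil chemokine CXCL5 (ENSG00000163735, chr4:73995642-73998779) rose from 93.8, 91.5 and 88.9 CPM to 225, 227 and 225 CPM. The high libraries lay close together, and the log2 change was 1.3 ± 0.038 (adjusted p = 5.34e-21). CXCL8, which encodes interleukin 8, was at 1.09, 1.37 and 1.08 CPM at the low dose, the level of the vehicle (1.08 ± 0.255 CPM). It reached 7.39, 8.71 and 7.24 CPM at the high dose, a 6.59-fold higher mean at a level that stayed under 10 CPM (2.7 ± 0.19). BIRC3, an antiapoptotic ubiquitin ligase, rose from 42.1, 41.9 and 43.5 CPM to 74.6, 70.2 and 76.9 CPM (0.80 ± 0.045). The noncanonical subunit genes RELB and NFKB2 rose by 0.85 ± 0.061 and 0.66 ± 0.054. The exception was PTGS2, the inducible cyclooxygenase, named after its value was seen, which fell from 23.2, 26.5 and 26.9 CPM to 18, 18.1 and 20.1 CPM (−0.44 ± 0.069). IL6, IL1A, IL1B, CSF2 and CXCL6 did not pass the filter on low counts.

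**Figure D2:**
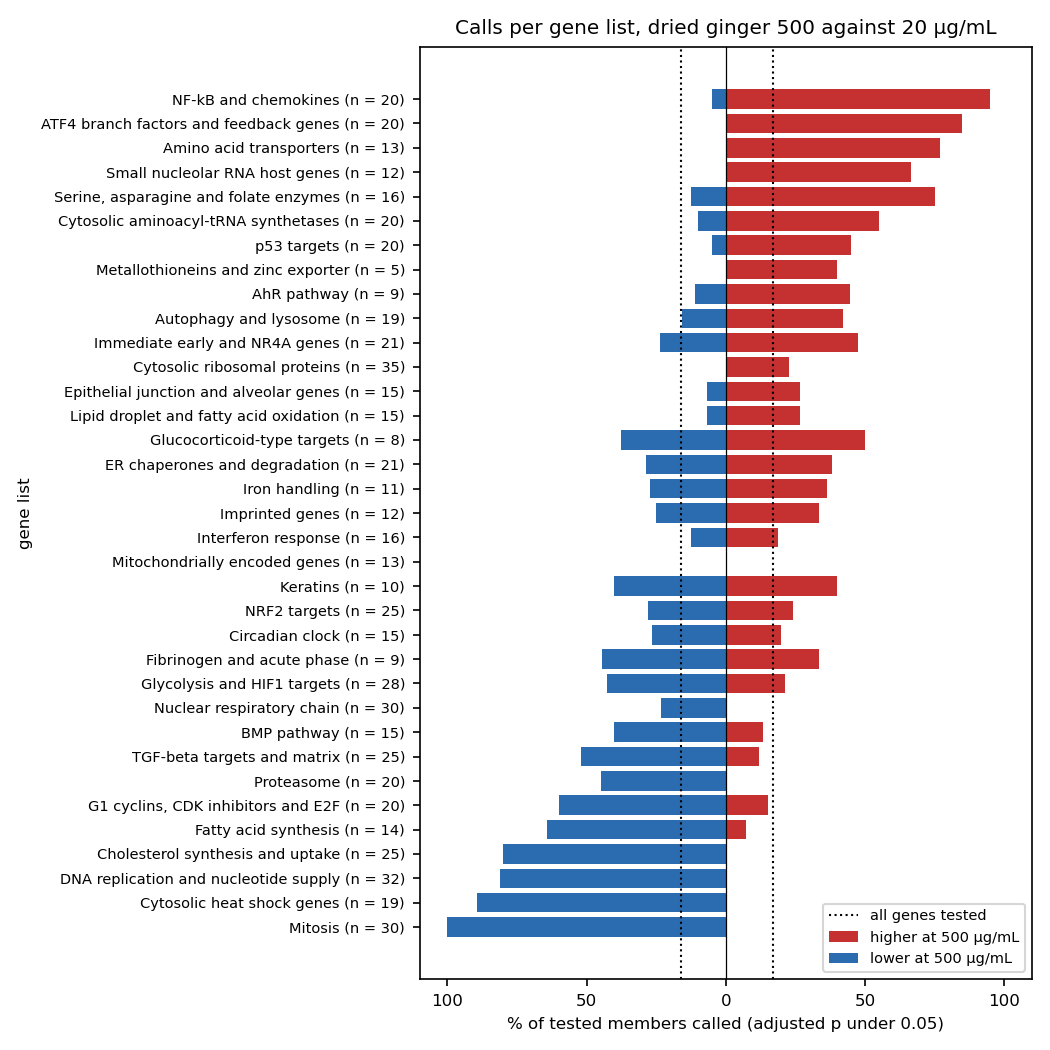
Share of tested members of each gene list called higher (red, right) or lower (blue, left) at 500 against 20 µg/mL of dried ginger, in %, with the number of tested members beside each name. Dotted lines mark the shares over all genes tested, 16.8% higher and 16% lower; NF-kB and ATF4 lists stand at the top, and all 30 mitosis genes at the bottom.

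Cell cycle genes fell. All 30 genes of the mitosis list were lower, with log2 changes between −0.95 and −0.33 and a median of −0.51. Cyclin B1, CCNB1 (ENSG00000134057, chr5:69167010-69178245), went from 213, 217 and 221 CPM to 137, 133 and 140.2 CPM, a drop of 37.0% with no overlap (−0.67 ± 0.037, adjusted p = 1.74e-14). The kinesin KIF20A, needed for cytokinesis, had 81.0, 80.2 and 85.7 CPM and then 43.5, 41.0 and 43.1 CPM (−0.95 ± 0.048). The kinases AURKA (−0.69 ± 0.040) and PLK1 (−0.66 ± 0.039) and cyclin A2, CCNA2 (−0.63 ± 0.039), fell by similar amounts. In bulk RNA, fewer cells in mitosis and less mRNA per such cell cannot be told apart.

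Genes of DNA replication and nucleotide supply were lower in 26 of 32 tested and higher in 0 (median −0.27), a smaller median than in the mitosis list. RRM2, a subunit of ribonucleotide reductase, had 333, 341 and 334 CPM at the low and 228, 225 and 236 CPM at the high dose (−0.55 ± 0.036). The replication factors MCM10 (−0.40 ± 0.045), MCM4 (−0.32 ± 0.036) and ORC1 (−0.45 ± 0.053) fell less than RRM2. Of 20 G1 cyclins, CDK inhibitors and E2F genes 12 were lower and 3 higher, beside 16% and 16.8% of all genes tested. Cyclin D3, CCND3, fell from 230.2, 229 and 215 CPM to 115, 109 and 111 CPM (−1.01 ± 0.044). CDKN2C, the CDK4 inhibitor p18, fell from 16.0, 16.0 and 15.2 CPM to 7.51, 6.62 and 6.96 CPM (−1.16 ± 0.092), and the repressors E2F7 and E2F8 fell by −0.50 ± 0.058 and −0.69 ± 0.077. CDKN1A, the CDK inhibitor p21, rose in the same libraries from 94.2, 99.8 and 91.2 CPM to 120.0, 125 and 124 CPM (0.37 ± 0.041). Vehicle held 109.5 ± 1.64 CPM of CDKN1A, a level between the low and the high dose.

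Promoters of mitosis genes are known for a cell cycle homology region (TTTGAA) bound by the MuvB complex, and for CCAAT boxes bound by NF-Y. In the same promoter windows TTTGAA was found on either strand in 15 of 25 mitosis genes with a promoter in the table (60%), beside 15.2% of all promoters. CCAAT was found in 19 of 25 (76%), beside 34.6%, and both in 12 of 25, beside 5.9%. Since every gene of the list fell, these shares separate no fallen from unchanged genes. PLK1 and KIF11 are shown as the members with a TTTGAA match before the start and the lowest p. Capitals mark TTTGAA or its reverse complement TTCAAA, and CCAAT or its reverse complement ATTGG. The 250 bases come from chr16:23678639-23678888 and chr10:92592880-92593129, both on the plus strand.
PLK1: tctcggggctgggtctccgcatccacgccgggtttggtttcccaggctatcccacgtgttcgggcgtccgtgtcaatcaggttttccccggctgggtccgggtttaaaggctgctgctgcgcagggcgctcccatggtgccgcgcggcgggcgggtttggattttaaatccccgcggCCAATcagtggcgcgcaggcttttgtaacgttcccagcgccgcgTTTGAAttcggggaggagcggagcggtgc
KIF11: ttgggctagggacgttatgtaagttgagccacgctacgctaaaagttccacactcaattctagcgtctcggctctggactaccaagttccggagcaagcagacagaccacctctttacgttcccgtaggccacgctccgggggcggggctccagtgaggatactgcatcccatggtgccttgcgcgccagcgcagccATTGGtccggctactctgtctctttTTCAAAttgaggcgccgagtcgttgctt
The TTTGAA match began 29 bases before the start in PLK1 and 28 in KIF11, with a CCAAT box upstream of it in both.

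Sterol synthesis genes fell as a group. Of 25 tested members of cholesterol synthesis and uptake 20 were lower and 0 higher, or 1 higher without replicate 3 of either dose (median −0.33). HMGCS1 (ENSG00000112972, chr5:43289395-43313512), which commits acetyl units to the mevalonate pathway, went from 204, 197 and 213 CPM to 129, 133 and 141 CPM. The difference of 34.3% was larger than the spread of either group (−0.60 ± 0.043, adjusted p = 5.15e-12). The isomerase IDI1 fell from 74.0, 71.8 and 71.2 CPM to 50.1, 43.3 and 50.3 CPM (−0.59 ± 0.048), and lanosterol synthase LSS fell by 0.46 on the log2 scale. Among uncalled members were MSMO1 (−0.03 ± 0.047), CYP51A1 (−0.05 ± 0.041) and TM7SF2 (0.28 ± 0.12), which were picked out after their values were seen.

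Fatty acid synthesis was lower in 9 of 14 tested members and higher in 1. The desaturase FADS2 fell from 422, 419 and 419 CPM to 296, 305 and 304 CPM (−0.48 ± 0.039), the stearoyl desaturase SCD by 0.40 and fatty acid synthase FASN by 0.39 on the log2 scale. ACACB, the acetyl-CoA carboxylase that restrains fatty acid oxidation, was the 1 higher member (0.40 ± 0.067). Of 15 genes of lipid droplets and fatty acid oxidation 4 were higher and 1 lower, beside 16.8% and 16% of all genes tested. PLIN2, the coat protein of lipid droplets, rose from 14.8, 14.7 and 15.6 CPM to 33.2, 27.6 and 29.1 CPM (1.00 ± 0.067). CPT1A, which brings fatty acids into mitochondria, rose by 0.51 ± 0.050, and ACADVL, an acyl-CoA dehydrogenase, by 0.43 ± 0.060.

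Heat shock genes were lower. Of 19 cytosolic chaperones and cochaperones 17 fell and 0 rose (median −0.35). HSPA1A, the inducible HSP70, had 333, 314 and 319.6 CPM at the low and 212, 194 and 190.2 CPM at the high dose, with a vehicle level of 345 ± 15.8 CPM (−0.70 ± 0.045, adjusted p = 5.63e-13). HSPA1B, a nearly identical copy, fell by 0.62 on the log2 scale. Reads of the pair cannot be assigned with certainty, so the division between them is uncertain. The abundant HSP90AB1 fell from 2034, 2099 and 2126 CPM to 1615, 1568 and 1625 CPM (−0.38 ± 0.039), and its cochaperones STIP1 (−0.35 ± 0.034) and CHORDC1 (−0.41 ± 0.040) fell with it. Proteasome subunits were lower in 9 of 20 and higher in 0, by small amounts (median −0.12; PSMD1 −0.34 ± 0.037), and 5 were lower without replicate 3 of the low dose.

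Oxidative stress genes did not move one way. Of 25 NRF2 targets 6 were higher and 7 lower (median −0.02), beside 16.8% and 16% of all genes tested. Heme oxygenase HMOX1 rose from 149, 156 and 147 CPM to 210.3, 209.8 and 205 CPM (0.47 ± 0.042), with 171 ± 8.75 CPM in vehicle, and the exporter ABCC3 rose from 403, 396 and 399.7 CPM to 637, 662 and 608 CPM (0.67 ± 0.041). GCLC, the rate-limiting enzyme of glutathione synthesis, fell from 334, 323 and 331 CPM to 244, 235 and 259 CPM (−0.42 ± 0.037). Glutathione reductase GSR (−0.36 ± 0.035) and transketolase TKT (−0.39 ± 0.036) fell as well. A549 cells are known for a KEAP1 mutation that keeps NRF2 active. Of 5 tested metallothioneins and the zinc exporter, MT2A (0.67 ± 0.17) and MT1F (0.68 ± 0.19) were higher. MT2A held 43.35 ± 7.01 CPM at the low dose, 69.7 ± 11.6 CPM at the high dose and 60.7 ± 4.75 CPM in vehicle. Its call was lost in an edgeR fit of the 6 libraries alone (adjusted p = 0.0635). MT1F was at a low level, with 1.28 ± 0.184 CPM at the low dose, 2.10 ± 0.292 CPM at the high dose and 1.45 ± 0.220 CPM in vehicle. MT1X (−0.05 ± 0.13), MT1A (−0.05 ± 0.20) and SLC30A1 (−0.01 ± 0.042) were not called, and their groups overlapped.

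p53 targets were higher in 9 of 20 and lower in 1. The death receptor TNFRSF10B rose from 163, 162 and 164 CPM to 258, 253 and 252 CPM (0.64 ± 0.039), the growth arrest gene GADD45A by 0.73 ± 0.083 and the proapoptotic BBC3 by 0.64 ± 0.095. TNFRSF10B and BBC3 are also known as targets of the ATF4 branch. Cyclin G1, CCNG1, was the lower member (−0.24 ± 0.044). Autophagy and lysosome genes were higher in 8 of 19 and lower in 3, or in 1 without replicate 3 of the high dose or replicate 2 or 3 of the low dose. Of all genes tested 16.8% were higher and 16% lower. The receptor SQSTM1, also known as p62, rose from 828, 838 and 788 CPM to 1477, 1414 and 1355 CPM (0.79 ± 0.039), and OPTN (0.53 ± 0.060) and the protease CTSL (0.46 ± 0.040) rose by less.

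Aryl hydrocarbon receptor targets rose at the top of their list. Of 9 tested members 4 were higher and 1 lower. CYP1B1, a cytochrome P450 (chr2:38066973-38109902), rose from 70.1, 75.0 and 75.9 CPM to 195, 195 and 203 CPM (1.42 ± 0.040, adjusted p = 2.99e-21). Its low dose already lay above the vehicle level of 56.6 ± 2.15 CPM. CYP1A1, the classical target of the receptor, rose from 1.45, 1.57 and 1.36 CPM to 5.65, 5.47 and 5.35 CPM (1.90 ± 0.15), and the ADP-ribosyltransferase TIPARP by 1.34 ± 0.047. The repressor AHRR rose by 0.74 ± 0.12, while AHR itself fell from 58.0, 54.0 and 53.8 CPM to 40.9, 45.5 and 44.8 CPM (−0.34 ± 0.057). The core element TNGCGTG lay in the promoter windows of AHRR, NQO1 and UGT1A6 among 8 members with a promoter, beside 5.51% of all promoters. It was found in 1 of 3 higher, 0 of 1 lower and 2 of 3 uncalled members.

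Glucose metabolism showed a mixed pattern, with 12 of 28 members lower and 6 higher, beside 16% and 16.8% of all genes tested. SLC2A3, a glucose transporter, fell from 34.7, 34.9 and 34.9 CPM to 15.1, 14.5 and 14.6 CPM (−1.24 ± 0.058). The hypoxia-induced hormone gene ADM fell by 0.64 and the regulator of glycolysis PFKFB3 by 0.40 on the log2 scale. VEGFA (0.49 ± 0.053) and ENO2 (0.51 ± 0.052), 2 other textbook HIF1 targets, rose. Nuclear genes of the respiratory chain were lower in 7 of 30, beside 16% of all genes tested, and in 3 without replicate 2 of the high dose. Of 13 mitochondrially encoded genes 0 were called by edgeR (1 at an unadjusted p under 0.05), 0 by DESeq2 and 3 in an edgeR fit of the 6 libraries alone. MT-CO1 changed by 0.15 ± 0.069. Cytosolic ribosomal protein genes were higher in 8 of 35, beside 16.8% of all genes tested, and in 5 to 20 across other settings. RPLP0 led them (0.35 ± 0.044). Their sum was 25957 to 27150 CPM at the low dose and 29070 to 29593 CPM at the high dose. In vehicle it was 28858 to 31436 CPM, so the high dose did not exceed the vehicle level.

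The 3 fibrinogen chains, neighbours on chromosome 4, fell together. FGB (chr4:154562956-154571086) had 169, 169 and 172 CPM at the low and 46.6, 42.8 and 47.9 CPM at the high dose (−1.89 ± 0.052, adjusted p = 2.72e-21). FGA (chr4:154583126-154590766) had 151, 150.5 and 154 CPM and 45.3, 45.4 and 50.2 CPM (−1.69 ± 0.047). FGG (chr4:154604134-154612967) had 93.3, 91.8 and 91.8 CPM and 34.4, 35.9 and 37.2 CPM (−1.36 ± 0.059). Every high library of these 3 genes lay under every low one. All 3 are among the 10 largest falls, whose choice required groups without overlap. The means fell by 73.1%, 69.1% and 61.2%. Ceruloplasmin CP, a copper-carrying ferroxidase, fell by 1.71 on the log2 scale, whereas complement C3 rose by 0.38 ± 0.057. Of 9 tested acute phase genes 3 were higher and 4 lower. Transferrin TF fell from 0.485, 0.401 and 0.560 CPM to 0.0395, 0.0889 and 0.127 CPM, too low a level for a firm size (−2.33 ± 0.50), and the ferritin chain FTH1 rose by 0.35 ± 0.079.

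H19 had the largest fall among genes that averaged 5 CPM or more. This imprinted noncoding RNA (ENSG00000130600, chr11:1995176-2001470) went from 89.4, 86.4 and 83.2 CPM to 13.4, 15.7 and 14.1 CPM, and from 85.7 ± 7.53 CPM in vehicle. The mean fell by 83.3% with no overlap, which the choice of the gene required (−2.59 ± 0.064, adjusted p = 5.76e-22). The keratin KRT4 fell by 80.2%, from 28.5, 28.8 and 26.8 CPM to 5.22, 5.42 and 6.04 CPM (−2.32 ± 0.064). The abundant keratins of simple epithelia, KRT8 and KRT18, fell by less, KRT8 from 3054, 3126 and 3023 CPM to 2027, 1983 and 1937 CPM (−0.63 ± 0.046) and KRT18 by 0.52 on the log2 scale. KRT19 rose from 22.0, 20.4 and 18.5 CPM to 30.5, 28.9 and 27.4 CPM (0.51 ± 0.076). Of 10 tested keratins 4 were higher and 4 lower. Other falls among the 10 largest were those of ARRB1, a beta-arrestin (−1.67 ± 0.10), INSL4, an insulin-like peptide known from placenta (−1.65 ± 0.10), and BCAS1, a gene amplified in some carcinomas (−1.53 ± 0.083).

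Immediate early genes divided into a rising and a falling set, 10 and 5 of 21 tested. NR4A1, an orphan nuclear receptor, fell from 33.9, 36.6 and 33.1 CPM to 10.8, 10.7 and 10.1 CPM (−1.72 ± 0.060), and NR4A3 from 7.80, 7.51 and 7.04 CPM to 1.82, 1.42 and 1.96 CPM (−2.07 ± 0.12). NR4A2, FOS and FOSB, named after their values were seen, made up the other falls. The AP-1 subunits JUN (35.0, 29.4 and 31.9 CPM and 60.8, 66.5 and 59.8 CPM, 0.96 ± 0.066) and FOSL1 (1.22 ± 0.089) rose, as did the MAP kinase phosphatase DUSP4 (0.41 ± 0.037). AP-1 genes thus moved both ways in the same libraries.

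Matrix genes were mostly lower, 13 of 25 members of the TGF-beta list against 3 higher, beside 16% and 16.8% of all genes tested. COL1A1 went from 29, 32.8 and 33.8 CPM to 18.5, 19 and 19.8 CPM (−0.73 ± 0.068), and COL5A1 (−0.36 ± 0.051) fell about as much as COL4A1 (−0.34 ± 0.043). COL1A1 and COL3A1 are also fibroblast markers, and COL1A2, which pairs with COL1A1 in fibroblasts, was listed at 0. Of 15 genes of the BMP pathway 6 were lower and 2 higher, beside 16% and 16.8% of all genes tested. The count of higher ones was 1 with DESeq2 and without replicate 2 or 3 of the high dose or replicate 1 or 3 of the low dose. The targets ID2 (−0.35 ± 0.042) and SMAD6 (−0.31 ± 0.055) fell beside the rise of the antagonist GREM1.

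The next question was where in the dose range the change lay. The step from 100 to 500 µg/mL was compared with the step from 20 to 100 µg/mL, both 5-fold, by testing their difference. The upper step was more upward for 598 genes (3.6%) and more downward for 631 (3.79%), together 7.39%, so that their level was not linear in log dose. Both counts rest on every medium dose library: without medium replicate 1, 2 or 3 in turn the total of 1229 became 687, 648 or 796. In the mitosis list 27 of 30 genes had the more downward upper step. Their median log2 change was 0.00 in the lower and −0.50 in the upper step. CCNB1 stood at 214 ± 2.21 CPM at the medium dose, next to its low dose level, and its steps differed by −0.63 ± 0.063 (adjusted p = 8.61e-08). In cholesterol synthesis 14 of 25 and in the heat shock list 15 of 19 had the more downward upper step. In the ATF4 branch 13 of 20 had the more upward one (medians 0.12 and 0.72), and in the NF-kB list 8 of 20.

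Among single genes the upper step exceeded the lower one in NIBAN1, whose steps differed by 1.68 ± 0.14. SMOC1, a secreted calcium-binding protein, dipped to 9.03 ± 0.202 CPM at the medium dose between 11.6 ± 0.490 and 20.6 ± 0.910 CPM (1.54 ± 0.12). In the downward direction NECAB2, a neuronal calcium-binding protein, differed by −1.45 ± 0.19, KRT4 by −1.43 ± 0.10, the WNT antagonist RNF43 by −1.34 ± 0.22, H19 by −1.33 ± 0.10 and ID4 by −0.99 ± 0.17. Other genes changed by like amounts in both steps. HMOX1 (0.03 ± 0.073, adjusted p = 0.853) and CYP1A1 (0.27 ± 0.27, adjusted p = 0.641) did not pass this test. CYP1A1 was at 2.61 ± 0.616 CPM at the medium dose, between 1.46 ± 0.105 and 5.49 ± 0.152 CPM. Values that miss the threshold do not show that the steps were equal.

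**Figure D3:**
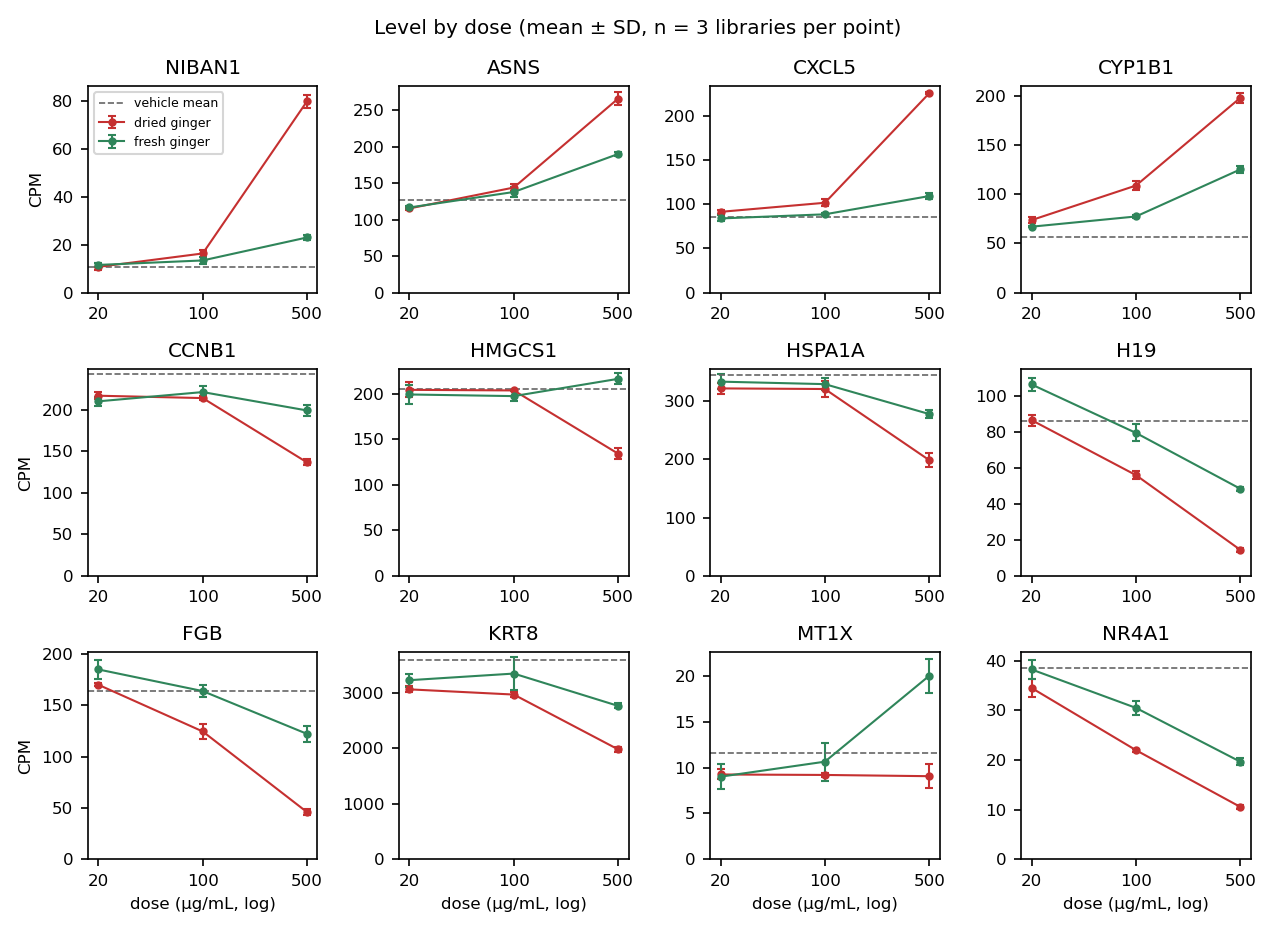
CPM (y axis from 0, mean ± SD, n = 3 libraries) of 12 genes against dose on a log axis, for dried ginger (red) and fresh ginger (green), with the vehicle mean dashed. CCNB1, HMGCS1 and HSPA1A stayed near their low dose level at 100 µg/mL of dried ginger and fell at 500 µg/mL, H19 and NR4A1 fell at each dose, and MT1X rose at 500 µg/mL of fresh ginger.

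Fresh ginger was given at the same doses, so the 2 dose changes could be compared by the difference between them. The change from 20 to 500 µg/mL was more upward with dried ginger for 924 genes (5.56%) and more downward for 942 (5.67%), together 11.2%. With fresh ginger itself 286 genes rose (1.72%) and 325 fell (1.95%) over the same range. NIBAN1 rose by 0.99 ± 0.081 with fresh ginger, and the difference was 1.91 ± 0.11 (adjusted p = 1.04e-12). KRT4 fell by 0.43 on the log2 scale with fresh ginger, a difference of −1.89 ± 0.085 (adjusted p = 5.30e-15). MT1X went from 9.02 ± 1.34 to 20.1 ± 1.85 CPM with fresh ginger and from 9.26 ± 0.548 to 9.07 ± 1.34 CPM with dried ginger (difference −1.20 ± 0.17, adjusted p = 4.42e-05).

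The lists differed in how far fresh ginger followed. In the ATF4 branch fresh ginger had 13 of 20 members higher (median 0.37), and 14 had a more upward change with dried ginger. In the NF-kB list fresh ginger had 2 higher and 1 lower (median 0.05), and 14 of 20 differed, all more upward with dried ginger. CXCL8 had a fresh ginger change of −0.01 ± 0.25 (difference 2.71 ± 0.32). In the mitosis list fresh ginger had 1 of 30 lower (median −0.08), and 28 had a more downward change with dried ginger. In cholesterol synthesis fresh ginger had 3 higher and 0 lower (median 0.09), and 22 of 25 differed. HMGCS1 changed by 0.12 ± 0.043 with fresh ginger (difference −0.72 ± 0.061, adjusted p = 2.57e-09). Of the heat shock genes 14 of 19 fell more with dried ginger. In the TGF-beta list, by contrast, the median was −0.16 with either extract. There fresh ginger had 9 of 25 members lower and 0 higher, and 5 changed more upward and 2 more downward with dried ginger. For HMOX1 (0.03 ± 0.060, adjusted p = 0.823) and CYP1A1 (0.26 ± 0.25, adjusted p = 0.603) the difference did not pass the test.

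**Figure D4:**
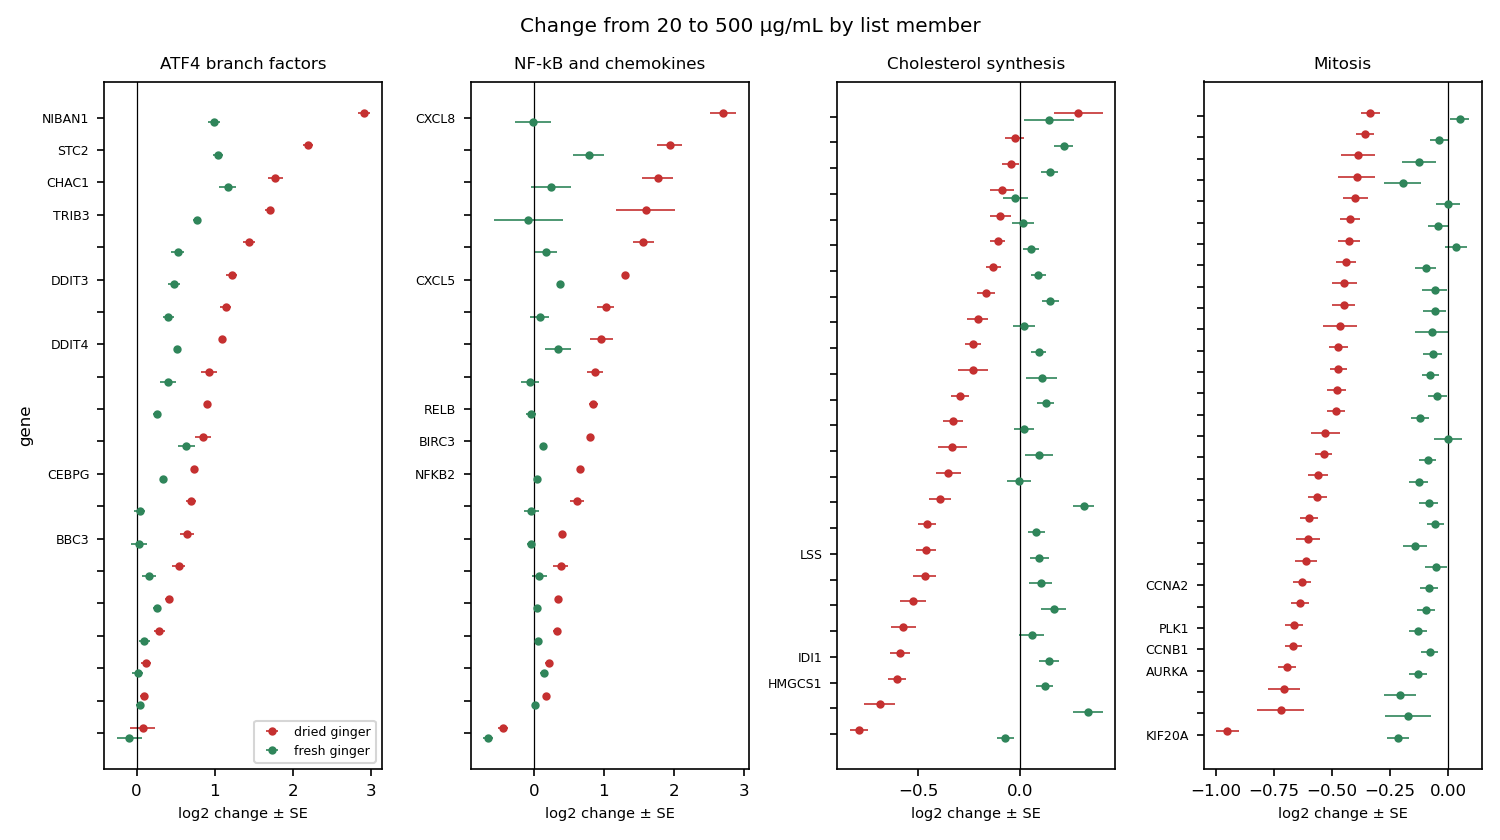
Log2 change ± SE from 20 to 500 µg/mL for each tested member of 4 gene lists (rows, with names for some members), with dried ginger in red and fresh ginger in green. In the ATF4 list the green points lie right of 0 but left of the red ones for most genes, while in the NF-kB, cholesterol and mitosis lists most green points lie near 0.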

How the data were processed

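RNA was sequenced from A549 cells as directional mRNA libraries read in 100 bp pairs. Per the labels, reads passed quality control in FastQC 0.11.9 and trimming in Trim Galore 0.6.5 before alignment to hg38 by STAR 2.7.3a. Gene counting used RSEM 1.3.3, with an annotation release that is not given in the sources used here. Values are the authors' expected counts per gene, as deposited (24.4% of non-zero values not whole), for 60675 IDs. Of the 269 columns deposited, 60 belong to this series and 209 were not used. Expected counts were rounded.

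The fit held 21 libraries, 9 of dried ginger, 9 of fresh ginger and 3 of vehicle, the last only for spread, scaling and filter. Genes were filtered with filterByExpr (minimum count 10), scaled by TMM and tested with edgeR 4.0.16 (robust quasi-likelihood F-test, R 4.3.3), with Benjamini-Hochberg adjustment over 16628 genes and a threshold of 0.05. CPM used TMM-scaled totals and was used only to compare a gene with itself between libraries. Errors of log2 changes are SE. The counting precision is set by totals of 22.0 to 38.5 M.

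Positions came from GENCODE 29 (57055 IDs), symbols from a separate list of gene names (56558 IDs) and promoters from RefSeq. The 40 gene lists (699 members) and the samples compared were chosen with earlier results of these data known. Lists were described by counts and medians, with no set test. Named genes were the 10 largest changes in each direction (mean of at least 5 CPM, no overlap), up to 5 members of lowest p per list, 8 genes followed throughout and 5 per direction in each of the other comparisons. Any others are said to be chosen after their values were seen. Some named genes are not reported here. Alternatives were DESeq2 1.42.0, RLE size factors, other filters, other sets of libraries, a replicate block and leaving out each library.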

Additional observations from a re-analysis of the deposited data

Results flagged for a closer look

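The change from 20 to 500 µg/mL differed between dried and fresh ginger in a test of the difference itself (edgeR). It was more upward with dried ginger for 924 genes and more downward for 942. Among the largest positive differences in log2 change, dried minus fresh, were those of NIBAN1 (1.91), CDCP1 (1.62), IRAK2 (1.20) and STC2 (1.15). All 4 genes are among the 10 largest rises of the comparison of doses, which is itself part of this difference. Among the largest negative differences were those of KRT4 (−1.89), H19 (−1.45), FGB (−1.29), MT1X (−1.20) and NR4A3 (−1.14). For MT1X the dried ginger change was −0.05 ± 0.13 and the fresh ginger change 1.15 ± 0.12.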

How the results depend on the processing

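The counts of higher and lower genes at 500 against 20 µg/mL stayed within 1.5 times of 2800 and 2654 in every alternative at the same threshold, and requiring a 2-fold change left 324 genes in all. DESeq2 called 2363 higher and 2521 lower genes. Leaving out 1 library at a time gave totals of 4547 to 4817. The total of 1866 for dried against fresh ginger became 1409 to 1787 with 1 library left out. Without replicate 3 of each ginger group, an alternative chosen after seeing the data, it was 1200, with 600 in each direction. The total of 1229 for the difference between steps was 648 to 1095 with 1 library left out, with 308 to 547 higher and 340 to 548 lower. Without medium replicate 1, 2 or 3 the totals were 687 (315 higher, 372 lower), 648 (308 and 340) and 796 (382 lower). Without replicate 3 of each group it was 665 (296 higher, 369 lower), and with all 60 libraries 983 genes were lower. In the leave-outs fewer libraries entered the fit. Why the counts fell there, or rose with all 60 libraries, was not tested. Replicate numbers tied the libraries only weakly. Correlations of deviations between same-numbered high and low libraries ran from −0.01 to 0.12 (median 0.05). Those between different numbers ran from −0.12 to 0.07 (median −0.03). Over all ginger groups the medians were 0.04 for same-numbered pairs (n = 45) and −0.02 for the others (n = 90). Of 6 libraries 3 correlated best with their own number. With the replicate block 5688, 2098 and 1436 genes were called in the 3 comparisons. Of 195 named genes 183 were called and 171 kept their call in every setting. Calls lost in some setting included those of MT2A, PSMC2, FTH1, ATP5F1B, UQCRFS1, STAT2, BMP4, CLDN7, AKR1C2 and TRPA1. None of the 183 changed direction in the settings run. Genes near 1 CPM, such as CXCL8 at the low dose, have the least certain fold changes.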

Other observations

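Host genes of small nucleolar RNAs were higher in 8 of 12 tested and lower in 0 (median 0.21), and in 5 or 6 when 1 library was left out. ZFAS1 went from 70.4, 75.0 and 75.0 CPM at the low dose to 142, 144 and 144 CPM at the high dose (0.96 ± 0.052, adjusted p = 8.24e-15, edgeR). GAS5 went from 118, 120.2 and 116 CPM to 187, 201 and 199 CPM (0.73 ± 0.059). These transcripts are spliced RNAs whose introns hold the small nucleolar RNAs and which are known to be degraded while translated. Among 12 tested imprinted genes 4 were higher and 3 lower, beside 16.8% and 16% of all genes tested. The noncoding RNA MEG3 rose from 51.6, 50.1 and 46.1 CPM to 99.1, 111 and 85.5 CPM (0.99 ± 0.089), opposite to H19, and the retrotransposon-derived PEG10 fell from 397, 388 and 401 CPM to 197, 199.8 and 205 CPM (−0.98 ± 0.041). The adaptor gene GRB10 rose by 0.62 ± 0.040.

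Epithelial junction and alveolar genes were higher in 4 of 15 tested and lower in 1, or in 0 without replicate 1 or 3 of the low dose and with DESeq2. Of all genes tested 16.8% were higher and 16% lower. The tight junction genes CLDN1 (121, 125 and 106 CPM to 191, 191 and 191 CPM, 0.71 ± 0.044) and OCLN (0.77 ± 0.057) rose, as did ABCA3 (0.67 ± 0.057), the lipid pump of lamellar bodies. LAMP3, a lysosomal membrane protein of alveolar type 2 cells, went from 0.162, 0.267 and 0.0800 CPM to 1.98, 1.56 and 1.53 CPM (3.23 ± 0.38). The surfactant genes SFTPB, SFTPC and SFTPD did not pass the filter on low counts. Of 15 clock genes 3 were higher and 4 lower, beside 16.8% and 16% of all genes tested, with NPAS2 at 0.71 ± 0.045 and PER2 at −0.47 ± 0.062. Of 8 glucocorticoid-type targets 4 were higher and 3 lower. TSC22D3 rose from 8.93, 8.58 and 9.39 CPM to 25.4, 23.5 and 22.8 CPM (1.41 ± 0.069) and SGK1 fell from 46.4, 46.4 and 48.8 CPM to 26.4, 26.4 and 28.0 CPM (−0.80 ± 0.047). Interferon response genes were higher in 3 of 16, or in 1 without replicate 1 or 2 of the low dose, and lower in 2, both shares near or under those of all genes. Of the channels known to respond to ginger phenols, TRPA1 changed by 0.40 ± 0.12 and TRPV1 by 0.14 ± 0.092 at levels under 14 CPM. The TRPA1 call was lost without replicate 1 of the high dose or replicate 1 or 2 of the low dose.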
